A study of Mus musculus with 9 samples.

Results

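The receptors through which blood-forming cells receive their growth factors are encoded by 9 genes of the deposited table: Kit, Flt3, Csf1r, Epor, Csf3r, Csf2ra, Il3ra, Csf2rb and Csf2rb2. They were taken by gene symbol, and the 12 transcripts listed for them were summed per gene, out of 21388 transcripts of 16537 genes in all. The 9 RNA-seq libraries were made from cells sorted out of the bone marrow of mice of the inbred strain FVB/NJ. Early-phase leukemic progenitors (early LP, 3 libraries) and median-phase leukemic progenitors (median LP, 3 libraries) came from mice of the genotype PML-RAR, and their age is given only as a phase. Hematopoietic progenitor cells (HPC, 3 libraries) came from wild-type mice at postnatal day 42. PML-RAR joins the promyelocytic leukemia protein to retinoic acid receptor alpha, as in human acute promyelocytic leukemia. The sources used here do not give the promoter that drives PML-RAR, the surface markers used for sorting, or whether any of the 9 receptors was among those markers.

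Growth factor receptors decide which signals a progenitor can hear. Kit, Flt3 and Csf1r are receptor tyrosine kinases of one structural class, which pair up on their ligand and phosphorylate each other. The others are cytokine receptors without a kinase of their own, which signal through bound JAK kinases and STAT factors. Receptors for GM-CSF and interleukin 3 are built from a ligand-specific alpha chain (Csf2ra, Il3ra) and a beta chain. The mouse has a pair of beta chains: Csf2rb, the common chain that serves the GM-CSF, interleukin 3 and interleukin 5 receptors, and Csf2rb2, which serves the interleukin 3 receptor alone. As cells mature they keep some of these receptors and lose others. Kit and Flt3 mark immature cells, Epor red cell precursors, Csf3r the granulocyte line and Csf1r the monocyte line.

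Levels below are FPKM as the authors deposited them (fragments per kilobase of transcript, scaled for library size), a unit that allows comparison between genes. Tests are from edgeR's quasi-likelihood fit of the deposited estimated counts over all 12837 tested genes and all 9 libraries, two-sided, with Benjamini-Hochberg adjustment and a threshold of 0.05. A log2 change carries its standard error (SE). Library depth was 20.6 to 28.4 M recovered fragments. Nothing in the labels ties the libraries of 1 group to different mice, and p-values therefore cover only the spread among these libraries, which may be technical. In 5 of the 9 libraries (early LP 1, median LP 2 and 3, HPC 1 and 2) long transcripts were higher than in the rest of their group, and HPC 3 lay farthest the other way. The labelled HPC held RNA of several lines. Its 9 stem and multipotent markers summed to 164 to 210 FPKM, mostly Cd34 and Cd48. Its 10 erythroid markers summed to 2100 to 2610 FPKM, mostly the carbonic anhydrase genes Car1 and Car2. The LP libraries held 5.50 to 6.16 FPKM (early) and 4.48 to 5.28 FPKM (median) of the same stem markers. Mpo, Elane, Prtn3, Ctsg, Ms4a3 and Hp were listed as promyelocyte markers. These 6 genes summed to 25800 to 30600 FPKM in early LP and 21000 to 24300 in median LP, against 8890 to 10100 in HPC. In bulk RNA, fewer cells of a type and less RNA per cell cannot be told apart.

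All 9 receptor genes passed the filter on low counts and were called in both comparisons with HPC. Kit, Flt3, Csf1r and Epor fell and Csf3r, Csf2ra, Il3ra, Csf2rb and Csf2rb2 rose, in early and in median LP alike. The background was high: 73.2% of all tested genes were called in early LP against HPC (35.3% higher, 37.9% lower) and 73.8% in median LP (36.0% higher, 37.7% lower). LP and HPC libraries were apart in FPKM, with no overlap, for all 9 genes in both comparisons, as for 75.3% of all tested genes in early LP and 76.0% in median LP against HPC. A call alone therefore says little about these genes, and the sizes carry the description. Both comparisons share the HPC libraries. With 5 genes up and 4 down, the median log2 change of the 9 genes was that of Csf3r, the smallest increase. It was 0.92 in early LP and 1.12 in median LP, beside -0.04 for all tested genes in both. In early LP only 214 of 12837 genes had a lower log2 change than Epor and 455 a lower one than Flt3, whereas 640 had a higher one than Csf2rb.

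**Figure D1:**
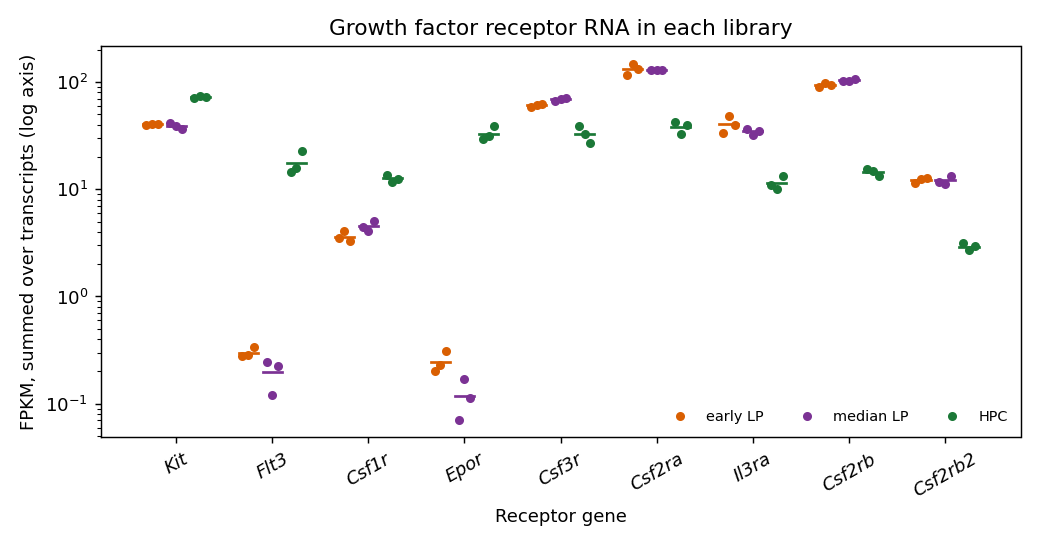
Each point is the FPKM of a receptor gene (horizontal axis) in 1 library, on a log vertical axis, for early LP (orange), median LP (purple) and HPC (green), and short lines are means of 3 libraries. Epor and Flt3 lie below 0.4 FPKM in every LP library and above 14 FPKM in every HPC library, while Csf2ra and Csf2rb lead in LP.

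Kit (mm10, chromosome 5, 75574987 to 75656721) encodes the receptor of stem cell factor. It stood at 39.6, 40.7 and 40.7 FPKM in early LP 1 to 3, at 41.2, 39.0 and 36.7 in median LP 1 to 3 and at 70.6, 74.5 and 72.2 in HPC 1 to 3. Every LP library lay below every HPC library, and the spread inside each group was small. The log2 change was -0.80 (SE 0.06, adjusted p = 3.21e-07 in edgeR) in early LP and -0.82 (SE 0.06, adjusted p = 2.44e-07) in median LP, a level 1.74-fold and 1.77-fold lower than in HPC. It was the smallest change of the 4 genes that fell, so Kit remained at a mean of 40.4 ± 0.623 FPKM in early LP and 39.0 ± 2.26 in median LP (SD, n = 3 each).

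The table splits Kit into a pair of transcripts whose coding sequences are 2940 and 2928 bases long and are otherwise identical. They differ by an insertion of 12 bases at an exon junction, which lies in the coding sequence for the part of the receptor outside the cell. The stretch around it is shown because reads that cross it can tell the coding sequences apart. The listed transcripts are 5181 and 5165 bases long, so they also differ outside the coding sequence. The sources used here do not give how reads were divided between them. Both lines are from the GENCODE transcripts of GRCm38, positions 1514 to 1573 and 1514 to 1561 of the coding sequence, chr5:75639123-75640516 on the plus strand with an intron between, and capitals mark the inserted bases.
Kit with insertion: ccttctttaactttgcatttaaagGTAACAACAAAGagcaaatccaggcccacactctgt
Kit without insertion: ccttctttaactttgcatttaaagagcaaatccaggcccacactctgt
The longer form made up 36.0, 36.2 and 32.4% of Kit FPKM in early LP 1 to 3, 34.1, 36.7 and 36.6% in median LP 1 to 3 and 38.6, 35.0 and 34.6% in HPC 1 to 3. The groups overlapped, with means of 34.8 ± 2.14% in early LP and 35.8 ± 1.47% in median LP, against 36.0 ± 2.19% in HPC (SD, n = 3 each). An exact two-sided permutation test of the log2 ratio gave p = 0.6 for early LP and p = 0.9 for median LP against HPC, where 3 against 3 libraries cannot go below 0.1. The difference in log2 ratio was -0.08 and -0.01. The mix of Kit forms thus differed by less than the spread between libraries, while the level was lower in LP.

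Flt3 (chromosome 5, 147330742 to 147400489) encodes the receptor of Flt3 ligand, found on multipotent and lymphoid progenitors and dendritic cell precursors. It stood at 0.279, 0.285 and 0.336 FPKM in early LP 1 to 3, at 0.245, 0.121 and 0.223 in median LP 1 to 3 and at 14.6, 15.7 and 22.8 in HPC 1 to 3. HPC 3 was the highest library and the groups lay far apart. The log2 change was -5.84 (SE 0.20, adjusted p = 1.58e-10 in edgeR), 57.3-fold lower, in early LP and -6.41 (SE 0.21, adjusted p = 1.10e-10), 84.7-fold lower, in median LP. On the log2(FPKM + 1) scale in limma, which compresses low levels, the changes were -3.82 in early LP and -3.94 in median LP. These LP values rest on few fragments: 25, 35 and 29 in early LP and 28, 13 and 26 in median LP, against 1670 to 2714 per HPC library. Markers of cell types that carry Flt3 are given beside it. Of 7 tested lymphoid progenitor and B cell markers 4 fell and 2 rose in early LP and 3 fell and 3 rose in median LP, with Dntt, the terminal transferase of lymphoid progenitors, at 0.248 ± 0.0693 FPKM in early LP and 0.117 ± 0.0635 in median LP, against 22.5 ± 4.65 in HPC (SD, n = 3 each). The summed level of that list ran the other way, at 258 to 298 FPKM in early LP and 194 to 218 in median LP, against 34.6 to 44.5 in HPC, since Igll1 of the surrogate light chain made up most of it in LP. Of 6 tested dendritic cell markers 5 fell and 1 rose (Itgax) in early LP and 4 fell and 2 rose (Itgax and Siglech) in median LP. All 8 of that list summed to 2.23 to 3.11 FPKM in early LP and 4.73 to 4.98 in median LP, against 17.5 to 27.3 in HPC. Cd74 alone stood at 1.40 ± 0.323 FPKM in early LP and 2.80 ± 0.306 in median LP, against 11.1 ± 3.19 in HPC. Of the 9 stem and multipotent markers 8 fell and 1 rose in early LP and 7 fell in median LP. Their part in the change of Flt3 was not tested.

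Csf1r (chromosome 18, 61105572 to 61131139) encodes the receptor of M-CSF and interleukin 34, on which monocytes and macrophages depend. Its levels were 3.50, 4.05 and 3.28 FPKM in early LP 1 to 3, 4.44, 4.08 and 5.02 in median LP 1 to 3 and 13.7, 11.6 and 12.5 in HPC 1 to 3. All LP libraries stood below all HPC libraries, and the median LP libraries lay just above the early ones. The log2 change was -1.76 (SE 0.11, adjusted p = 3.74e-08 in edgeR) in early LP and -1.42 (SE 0.11, adjusted p = 2.15e-07) in median LP, 3.38-fold and 2.68-fold lower. Other monocyte genes did not follow it as a group: of 8 tested monocyte and macrophage markers 5 rose and 2 fell in each comparison. Irf8, which encodes a transcription factor of the monocyte line, fell with Csf1r, at a log2 change of -4.88 (SE 0.13, adjusted p = 1.89e-11) in early LP, while Emr1, the macrophage antigen F4/80, rose by 2.85 (SE 0.11, adjusted p = 6.36e-10). The list summed to 10900 to 11200 FPKM in early LP and 9500 to 9990 in median LP, against 873 to 1050 in HPC, nearly all of it Ly6c2.

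Epor (chromosome 9, 21958899 to 21963576) encodes the erythropoietin receptor, on which red cell precursors depend. Its levels were 0.202, 0.232 and 0.308 FPKM in early LP 1 to 3, 0.0711, 0.171 and 0.114 in median LP 1 to 3 and 29.1, 31.2 and 38.7 in HPC 1 to 3. It had the largest fall of the 9 genes, at a log2 change of -7.0 (SE 0.19, adjusted p = 2.87e-11 in edgeR), 128-fold lower, in early LP and -7.96 (SE 0.21, adjusted p = 2.23e-11), 249-fold lower, in median LP. On the log2(FPKM + 1) scale in limma they were -4.76 in early LP and -4.92 in median LP. Behind the LP values stood 28 fragments in all 3 early libraries and 15 in all 3 median libraries, against 4360 in HPC. Erythroid markers fell with it. All 9 tested were lower in early LP, among them Klf1, the erythroid transcription factor, at a log2 change of -7.62 (SE 0.14, adjusted p = 2.86e-12). In median LP 7 of the 9 were lower and 2 higher. Hba-a1, an alpha-globin gene, stood at 372, 512 and 331 FPKM in median LP 1 to 3, at 7.55, 16.0 and 7.08 in early LP 1 to 3 and at 99.1, 53.5 and 62.5 in HPC 1 to 3. The 10 erythroid markers summed to 46.7 to 55.8 FPKM in early LP and 367 to 555 in median LP, against 2100 to 2610 in HPC. These sums rest on different genes. The carbonic anhydrase genes Car1 (1410 ± 243 FPKM) and Car2 (491 ± 35.3) made up most of it in HPC. Hba-a1 made up most of it in median LP and Tfrc (30.4 ± 1.89) most of it in early LP. Hba-a1 was thus higher in every median LP library than in HPC, while Epor was lower in every one. The part of red cell precursors in the change of Epor was not tested.

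The stretch before the start of Epor is shown as the window of the gene that fell most, and that before Csf2ra as the window of the gene with the most RNA per length in LP. RefSeq windows on GRCm38.p6 matched 7 of the 9 genes, all but Csf1r and Csf2rb. Both lines give the 250 bases before the annotated start, for Epor chr9:21963577-21963826 and for Csf2ra chr19:61228419-61228668, both on the minus strand. Capitals mark the GATA letters (AGATAA or TGATAA, or the same ending in G, on either strand) in Epor and the PU.1 core letters (GAGGAA on either strand) in Csf2ra.
Epor: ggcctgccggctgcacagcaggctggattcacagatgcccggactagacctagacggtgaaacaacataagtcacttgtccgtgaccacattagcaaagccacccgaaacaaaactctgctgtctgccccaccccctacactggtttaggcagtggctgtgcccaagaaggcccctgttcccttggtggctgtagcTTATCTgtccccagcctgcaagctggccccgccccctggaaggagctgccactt
Csf2ra: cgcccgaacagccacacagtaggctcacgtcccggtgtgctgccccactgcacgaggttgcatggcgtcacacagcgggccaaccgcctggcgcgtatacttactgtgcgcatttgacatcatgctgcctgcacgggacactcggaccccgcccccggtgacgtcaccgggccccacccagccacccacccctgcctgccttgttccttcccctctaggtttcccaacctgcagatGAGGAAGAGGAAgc
The Epor match began 54 bases before the start, and the Csf2ra matches began 14 and 8 bases before it, one right after the other. Such letters are common, with GATA letters in 26.5% and PU.1 letters in 23.3% of all 32851 windows of that length. Of the other members, Csf2rb2 and Il3ra held GATA letters and Kit, Csf2rb2 and Csf3r held PU.1 letters. GATA letters thus stood before genes that fell and genes that rose, and so did PU.1 letters.

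Csf3r (chromosome 4, 126024659 to 126044975) encodes the receptor of G-CSF, the main growth factor of the granulocyte line. It stood at 58.0, 61.6 and 61.9 FPKM in early LP 1 to 3, at 66.9, 69.1 and 71.2 in median LP 1 to 3 and at 39.2, 32.5 and 26.7 in HPC 1 to 3. The HPC libraries were the most spread and lay below all LP libraries. The log2 change was 0.92 (SE 0.13, adjusted p = 4.16e-05 in edgeR) in early LP and 1.12 (SE 0.13, adjusted p = 7.35e-06) in median LP, 1.89-fold and 2.18-fold higher and the smallest of the 5 increases. Granulocyte genes did not all move with it. Of the 6 genes listed as promyelocyte markers 5 rose in early LP, all but Prtn3, which was not called. Of 9 late neutrophil genes 3 rose and 2 fell in early LP and 3 rose and 5 fell in median LP.

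Of the 3 Csf3r transcripts, the one of 3907 bases carried most of the RNA, with 74.3, 72.0 and 69.8% of Csf3r FPKM in early LP 1 to 3, 71.4, 70.4 and 67.2% in median LP 1 to 3 and 78.5, 76.4 and 78.2% in HPC 1 to 3. All LP libraries lay below all HPC libraries, with a difference in log2 ratio of -0.44 in early and -0.60 in median LP, at the smallest exact permutation p that 3 against 3 allow (p = 0.1 in both, two-sided). The coding transcript of 3583 bases took 12.6 to 16.0% in early LP, 16.2 to 20.1% in median LP and 7.67 to 13.4% in HPC, and the non-coding one of 3948 bases took 12.1 to 15.5% in early LP, 12.4 to 13.2% in median LP and 9.14 to 14.2% in HPC. The early LP and HPC ranges overlapped for both. The sources used here do not give how reads were divided between these transcripts.

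Csf2ra (chromosome 19, 61224402 to 61228418), the alpha chain of the GM-CSF receptor, had the highest level of the 9 genes in LP. It stood at 117, 148 and 132 FPKM in early LP 1 to 3, at 128, 129 and 129 in median LP 1 to 3 and at 42.1, 33.0 and 39.8 in HPC 1 to 3. No LP library came near the HPC range. The log2 change was 1.82 (SE 0.11, adjusted p = 2.14e-08 in edgeR) in early LP and 1.76 (SE 0.11, adjusted p = 2.69e-08) in median LP, 3.52-fold and 3.39-fold higher.

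Il3ra (chromosome 14, 14346495 to 14355490), the alpha chain of the interleukin 3 receptor, stood at 33.5, 48.5 and 39.9 FPKM in early LP 1 to 3, at 36.8, 31.7 and 35.2 in median LP 1 to 3 and at 10.9, 10.1 and 13.3 in HPC 1 to 3. Early LP 2 was the highest library, and the groups of LP and HPC did not overlap. It rose by a log2 change of 1.86 (SE 0.13, adjusted p = 9.14e-08 in edgeR) in early LP and 1.62 (SE 0.13, adjusted p = 3.11e-07) in median LP, 3.63-fold and 3.08-fold higher.

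Csf2rb (chromosome 15, 78325990 to 78351001), the common beta chain, had the largest increase. It stood at 90.0, 97.7 and 94.7 FPKM in early LP 1 to 3, at 103, 102 and 106 in median LP 1 to 3 and at 15.6, 14.9 and 13.2 in HPC 1 to 3. Each median LP library was above each early LP library, and all LP libraries were far above HPC. The log2 change was 2.74 (SE 0.09, adjusted p = 1.28e-10 in edgeR), 6.69-fold, in early LP and 2.89 (SE 0.09, adjusted p = 8.07e-11), 7.43-fold, in median LP. Csf2rb2 (chromosome 15, 78282510 to 78305603) lies 20.4 kb away. It stood at 11.4, 12.5 and 12.6 FPKM in early LP 1 to 3, at 11.8, 11.1 and 13.4 in median LP 1 to 3 and at 3.12, 2.69 and 2.95 in HPC 1 to 3. Its log2 change was 2.11 (SE 0.09, adjusted p = 1.60e-09) in early LP and 2.12 (SE 0.09, adjusted p = 1.52e-09) in median LP, 4.32-fold and 4.33-fold higher. Both genes lie on a chromosome whose 498 tested genes had a median log2 change of 0.53 in early LP and 0.51 in median LP. The part of the chromosome in their change was not tested.

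The beta chain genes are near copies of each other, so reads can be hard to assign. Their coding sequences were identical at 95.2% of 2631 aligned bases. Of the windows of 50 bases in the Csf2rb2 transcript 19.0% also occur unchanged in Csf2rb, and of those of 100 bases 7.20%. The first 120 coding bases of Csf2rb2 are shown to give a view of this likeness, from the GENCODE transcripts of GRCm38 (chr15:78297071-78298229, minus strand, with an intron between), with capitals at the 4 bases that differ from Csf2rb.
Csf2rb2: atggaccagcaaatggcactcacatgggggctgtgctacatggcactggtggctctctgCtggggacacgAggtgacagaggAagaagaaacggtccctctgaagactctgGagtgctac
Csf2rb2 made up 11.2, 11.3 and 11.8% of the FPKM of both beta chains in early LP 1 to 3, 10.3, 9.83 and 11.2% in median LP 1 to 3 and 16.7, 15.3 and 18.3% in HPC 1 to 3. The share was lower in every LP library than in every HPC library. An exact two-sided permutation test of the log2 ratio gave p = 0.1 for early LP (a difference of -0.64) and p = 0.1 for median LP (-0.79), the smallest p that 3 against 3 allow. Summed to 1 gene, the beta chains stood at 106 ± 4.5 FPKM in early LP and 116 ± 3.73 in median LP, against 17.5 ± 1.3 in HPC (SD, n = 3 each).

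**Figure D2:**
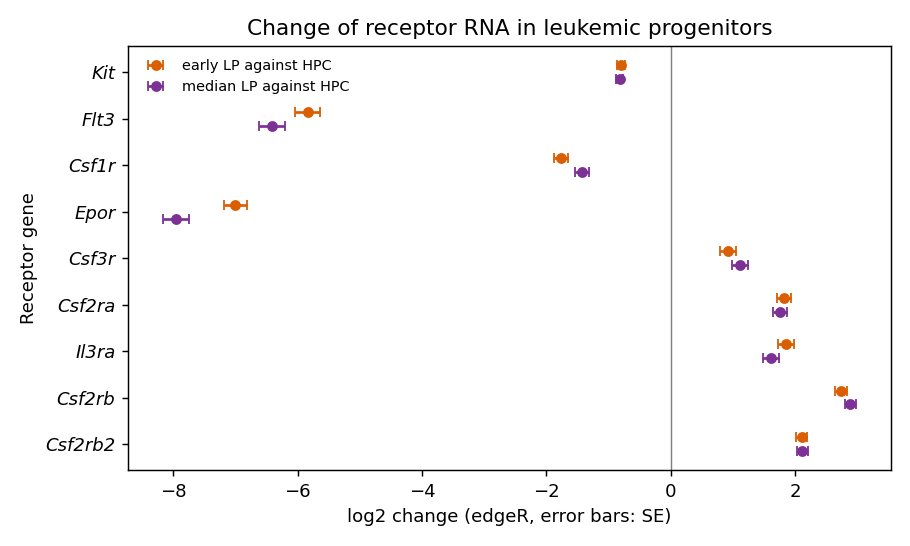
Points are edgeR log2 changes of the 9 receptor genes (vertical axis) in early LP (orange) and median LP (purple) against HPC, with bars of 1 SE. The changes run from -7.96 for Epor to 2.89 for Csf2rb, both in median LP, and each gene has the same sign in both comparisons.

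The order of the receptors by level per length also differed between LP and HPC. In early LP it ran Csf2ra, Csf2rb, Csf3r, Il3ra, Kit, Csf2rb2, Csf1r, Flt3 and Epor, and in median LP the same with Kit before Il3ra. Neighbours in that order whose libraries overlapped were Il3ra and Kit, and Flt3 and Epor, in both LP groups. In HPC it ran Kit, Csf2ra, Epor, Csf3r, Flt3, Csf2rb, Csf1r, Il3ra and Csf2rb2. There Kit stood clear of the rest and Csf2rb2 clear below, while Csf2ra, Epor and Csf3r overlapped as neighbours, as did Flt3, Csf2rb, Csf1r and Il3ra. The FPKM of Kit over that of Csf2rb averaged 0.429 ± 0.0121 in early LP and 0.377 ± 0.0286 in median LP, against 5.0 ± 0.476 in HPC (SD, n = 3 each).

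Alpha and beta chains rose unequally. The FPKM of Csf2ra over that of both beta chains was 1.16, 1.34 and 1.23 in early LP 1 to 3, 1.11, 1.14 and 1.08 in median LP 1 to 3 and 2.25, 1.88 and 2.47 in HPC 1 to 3. Il3ra over both beta chains was 0.331, 0.440 and 0.371 in early LP 1 to 3, 0.321, 0.282 and 0.293 in median LP 1 to 3 and 0.580, 0.572 and 0.822 in HPC 1 to 3. Both ratios were lower in every LP library than in every HPC library. The summed beta chains include Csf2rb2, which does not serve the GM-CSF receptor, so the Csf2ra ratio is not that of this receptor alone. Csf2rb2 averaged 11.4% of the sum in early LP and 10.4% in median LP, against 16.8% in HPC. Il3ra was also set over Csf2rb2, the beta chain of the interleukin 3 receptor alone. That ratio averaged 3.33 ± 0.494 in early LP and 2.87 ± 0.257 in median LP, against 3.90 ± 0.529 in HPC (SD, n = 3 each). Early LP and HPC libraries overlapped. All median LP libraries (3.13, 2.87 and 2.61) lay below all HPC libraries (3.48, 3.73 and 4.5).

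**Figure D3:**
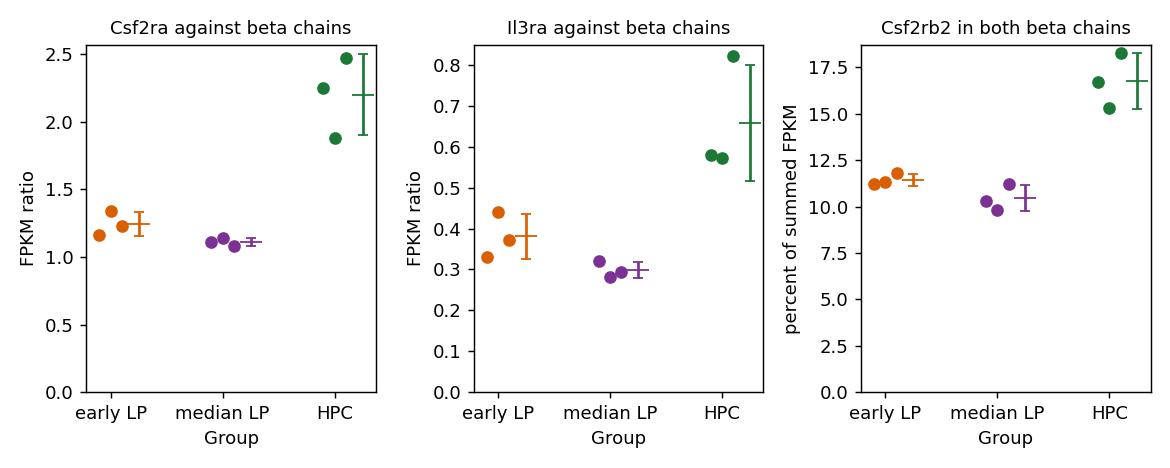
Panels show, per library, the FPKM of Csf2ra over that of both beta chains, the same ratio for Il3ra, and the percent of beta chain FPKM from Csf2rb2 (vertical axes) in early LP, median LP and HPC, with means and SD of 3 libraries beside the points. All LP points lie below all HPC points in each panel.

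No receptor gene passed the test between the LP phases. The comparison of median with early LP called 0 of the 9 genes in edgeR (of all tested genes 2.48% were called, 1.48% higher and 0.997% lower), and 0 in DESeq2 and in limma on FPKM. At an unadjusted p under 0.05 edgeR gave 1 of 9, Csf1r, where 16.5% of all tested genes reach that p. Csf1r averaged 4.51 ± 0.477 FPKM in median LP and 3.61 ± 0.397 in early LP (log2 change 0.34, SE 0.11, adjusted p = 0.159). The largest point estimates belonged to the genes with the fewest fragments. Epor differed by a log2 change of -0.96 (SE 0.44, adjusted p = 0.304) and Flt3 by -0.57 (SE 0.31, adjusted p = 0.393), sizes that this depth cannot tell from no change. For the well-covered genes the estimates were small: -0.02 (SE 0.06) for Kit, 0.01 (SE 0.09) for Csf2rb2, -0.05 (SE 0.10) for Csf2ra, 0.15 (SE 0.08) for Csf2rb, 0.21 (SE 0.13) for Csf3r and -0.24 (SE 0.12) for Il3ra. Libraries of the phases did not overlap for 5 of the 9 genes (Flt3, Epor, Csf1r, Csf2rb and Csf3r), where 22.3% of all tested genes have groups that do not overlap.

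Of 10 listed ligands of these and related receptors 6 had a row and 3 were tested, and the other 4 were not analysed here. Of the 3 tested, 1 (Il3) rose in early LP and 2 (Il3 and Csf1) rose in median LP. Interleukin 3, better known as a product of activated T cells and mast cells, was at 7.53, 6.63 and 6.55 FPKM in early LP 1 to 3, at 8.95, 8.12 and 5.38 in median LP 1 to 3 and at 0 in all HPC libraries. Against a floor of 3 fragments over the HPC group it was at least 124-fold higher in early LP and at least 144-fold higher in median LP. Its receptor chains Il3ra, Csf2rb and Csf2rb2 rose in the same libraries. Of 7 tested basophil and mast cell markers 1 rose and 5 fell in early LP and 1 rose and 4 fell in median LP. The one that rose was Mcpt8, a basophil protease, at 38.6 ± 2.75 FPKM in early LP and 28.9 ± 2.6 in median LP, against 17.4 ± 2.6 in HPC (SD, n = 3 each). Its log2 change was 1.17 (SE 0.11, adjusted p = 1.68e-06) in early LP and 0.79 (SE 0.11, adjusted p = 4.97e-05) in median LP, and it made up most of the summed level of the list in LP. Prss34, another basophil protease, was not called, at 6.07 ± 1.6 FPKM in early LP and 4.91 ± 0.693 in median LP, against 3.89 ± 2.41 in HPC. The mast cell proteases Cpa3 and Tpsb2 stood at 0.786 ± 0.34 and 0 FPKM in early LP and 1.06 ± 0.139 and 0 in median LP, against 34.0 ± 6.61 and 0.147 ± 0.086 in HPC. All 8 markers of the list summed to 42.9 to 51.0 FPKM in early LP and 35.7 to 40.7 in median LP, against 84.1 to 112 in HPC. Their part in the level of Il3 was not tested. Csf1, the M-CSF gene, stood at 3.01, 1.89 and 1.32 FPKM in median LP 1 to 3, at 0.661, 0.878 and 0.689 in early LP 1 to 3 and at 1.39, 1.05 and 1.05 in HPC 1 to 3. It rose in median LP by a log2 change of 0.92 (SE 0.24, adjusted p = 0.00498) against HPC and of 1.48 (SE 0.26, adjusted p = 0.0121) against early LP. Flt3l, the ligand of Flt3, was not called, at 4.45 ± 0.609 FPKM in early LP and 4.19 ± 0.651 in median LP, against 5.54 ± 0.347 in HPC. Kitl, Il5 and Il34 had 6 fragments or fewer per group.

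Among 12 tested cytokine receptors outside the 9 genes, 5 rose and 4 fell in early LP and 4 rose and 4 fell in median LP. Of 8 megakaryocyte markers 6 fell in each comparison, and their summed level was 3.64 to 5.49 FPKM in early LP and 3.20 to 3.78 in median LP, against 78.4 to 115 in HPC. Il6st, the signalling chain of the interleukin 6 family, fell by 4.92 (SE 0.15, adjusted p = 8.70e-11) in early LP. Ghr, the growth hormone receptor, rose to 10.3 ± 0.832 FPKM in early LP and 9.58 ± 0.252 in median LP, against 0.104 ± 0.0571 in HPC. Il2rg, the common gamma chain, rose by 0.89 (SE 0.08, adjusted p = 1.14e-06) in early LP. Of the 4 tested receptor tyrosine kinases related to Kit, Flt3 and Csf1r, 2 rose and 2 fell in both comparisons. Flt1, a VEGF receptor, rose to 20.8 ± 1.5 FPKM in early LP and 22.6 ± 2.28 in median LP, against 0.287 ± 0.0285 in HPC, and Flt4, another VEGF receptor, by 3.57 (SE 0.21, adjusted p = 1.94e-08) in early LP. Pdgfrb and Kdr fell.

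Among 13 JAK, STAT and Src-type kinase genes 6 rose and 5 fell in early LP, with a median log2 change of -0.05 (-0.04 for all genes). Stat5a and Stat5b, the STAT factors that most of these cytokine receptors use, stood at 14.7 ± 1.07 and 15.1 ± 0.291 FPKM in early LP and 14.7 ± 1.26 and 14.9 ± 0.976 in median LP, against 33.5 ± 3.46 and 28.2 ± 1.82 in HPC. Stat5a fell by 1.18 (SE 0.07, adjusted p = 3.30e-08) and Stat5b fell by 0.87 (SE 0.06, adjusted p = 8.12e-08) in early LP. Jak2, the kinase bound by Epor and the beta chains, fell by 0.61 (SE 0.06, adjusted p = 3.56e-06). Lyn and Fes, kinases of myeloid cells, rose by 1.21 (SE 0.06, adjusted p = 2.80e-09) and 0.96 (SE 0.09, adjusted p = 2.12e-06). Of 12 adaptors and effectors 6 rose and 2 fell in early LP and 6 rose and 1 fell in median LP. Plcg2 rose by 1.14 (SE 0.07, adjusted p = 3.08e-08) in early LP, and Shc1, Gab2 and Gab1 rose by 0.65 to 0.95 there.

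Negative regulators went both ways, with 6 of 17 higher and 4 lower in early LP and 7 higher and 4 lower in median LP. Cish, Socs1, Socs2 and Socs3 belong to the SOCS family, which cytokine receptors induce and which restrains them, and all 4 rose in both comparisons. Cish stood at 19.1, 23.3 and 20.2 FPKM in early LP 1 to 3, at 29.9, 23.3 and 29.7 in median LP 1 to 3 and at 1.92, 3.10 and 2.86 in HPC 1 to 3. The log2 change of Cish was 3.04 (SE 0.15, adjusted p = 5.12e-09) in early LP and 3.45 (SE 0.15, adjusted p = 1.64e-09) in median LP, and that of Socs2 2.18 (SE 0.11, adjusted p = 5.02e-09) and 2.23 (SE 0.11, adjusted p = 3.88e-09). Socs1 and Socs3, named after their values were seen, rose by 2.94 and 2.07 in early LP. Grb10, an adaptor that restrains receptors, fell by 7.57 (SE 0.24, adjusted p = 8.80e-11) and Dok2, a docking protein, fell by 2.98 (SE 0.18, adjusted p = 2.62e-08) in early LP. Of 8 genes known as STAT5 targets, 4 rose and 2 fell in early LP and 4 rose and 1 fell in median LP. Id1 rose by 2.70 (SE 0.13, adjusted p = 3.65e-09), Bcl2l1, which encodes BCL-XL, by 0.73 (SE 0.10, adjusted p = 4.50e-05) and Pim1, a survival kinase, by 0.59 (SE 0.09, adjusted p = 6.05e-05), while Ccnd2, cyclin D2, fell by 7.37 (SE 0.15, adjusted p = 4.49e-12).

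**Figure D4:**
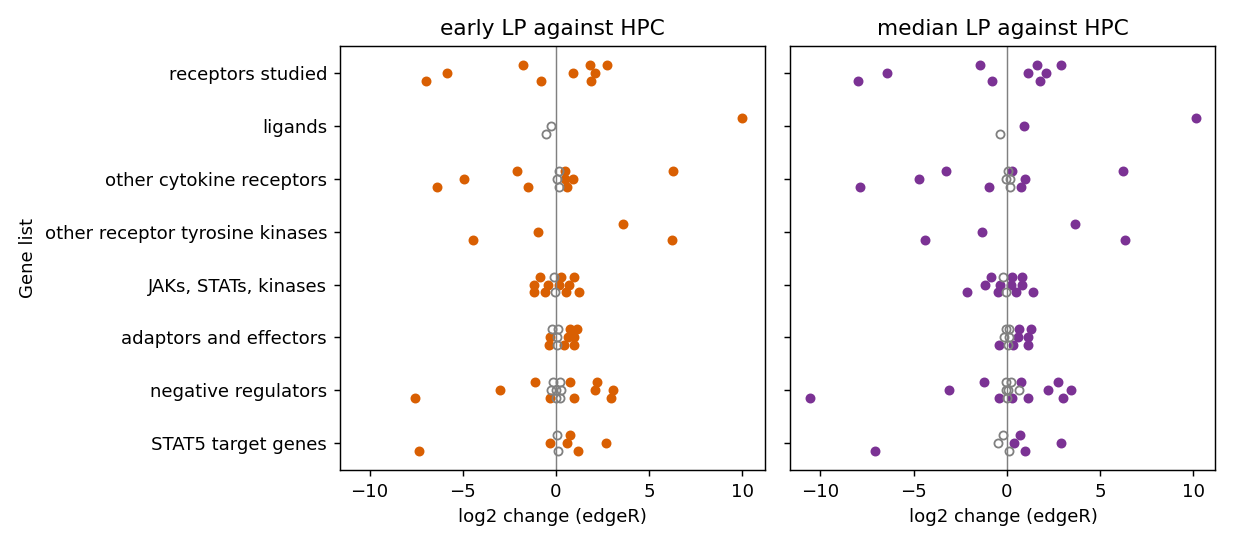
Each point is a tested gene of a list (vertical axis) at its edgeR log2 change against HPC (horizontal axis), with early LP in the left panel and median LP in the right one, filled where called at an adjusted p under 0.05 and open grey where not. The receptors spread from -7.96 to 2.89, the JAK, STAT and Src-type kinases from -2.15 to 1.43, and the point near 10 is Il3, a fitted value for a gene at 0 in HPC.

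The nearest genes on the chromosome were set beside the receptors. Epor fell by 7.0, while 2310047B19Rik, 628 bases away, rose by 0.42 (SE 0.10, adjusted p = 0.00223) in early LP. Flt3 fell by 5.84 in early LP. Polr1d, 219 kb away, had a log2 change of -0.17 (SE 0.09) there and was not called. D5Ertd605e, 18.1 kb away on the other side, was at -0.08 (SE 0.19) in early LP and was not called either. In median LP, D5Ertd605e was called lower, at -0.67 (SE 0.19, adjusted p = 0.00824). Csf1r and its neighbour Pdgfrb, a related kinase gene 20.5 kb away, both fell, Pdgfrb with a log2 change of -0.96 (SE 0.12, adjusted p = 1.17e-05) in early LP. Hmgxb3, 137 bases from Csf1r on the other side, was not called in early LP (-0.16, SE 0.08) and was called lower in median LP (-0.27, SE 0.08, adjusted p = 0.00779). Tst, 48.6 kb from Csf2rb, rose by 2.36 (SE 0.11, adjusted p = 1.71e-09) in early LP. Ncf4, a subunit of the phagocyte oxidase 19.9 kb from Csf2rb2, rose by 0.34 (SE 0.11, adjusted p = 0.0148) there. The median of the 498 tested genes of their chromosome was 0.53 in early LP, above the change of Ncf4. Gm7102, 48.1 kb from Csf2ra, also rose, to 1.97 ± 0.242 FPKM in early LP against 1.15 ± 0.285 in HPC. 2610028E06Rik, 102 kb from Csf3r, rose from a level near 0 in HPC to only 0.377 ± 0.0778 FPKM in early LP. Other neighbours of genes that rose fell in early LP. Mrps15, 1.95 kb from Csf3r, fell by 0.45 (SE 0.09, adjusted p = 0.000632). Slc4a7, 348 kb from Il3ra, fell by 0.45 (SE 0.13, adjusted p = 0.00652). In median LP Mrps15 was again lower and Slc4a7 was not called. No gene of the table overlaps any of the 9.

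Patterns over the 9 libraries were compared with those of 11829 genes by the root mean square difference of log2 CPM, centred per gene. Left out were the receptors and genes with a Gm number or a Rik symbol. The pattern of Kit was most like those of Usp25 (0.037) and Tapt1 (0.044). That of Flt3 was most like Ldoc1l (0.184) and Muc13 (0.201), of Epor like Gnb4 (0.253) and Eng (0.286), and of Csf1r like Nlgn2 (0.135) and Rsad1 (0.136). Of the genes that rose, Csf2rb was nearest to Pde8a (0.074), Csf2rb2 to Zbtb7b (0.085) and Csf3r to BC005537 (0.083). Since 3 groups shape all of these profiles, the measure mainly says that these genes have changes of like size.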

How the data were processed

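RNA of 9 libraries (3 each of early LP, median LP and HPC) was analysed from 1 deposited table of 21388 RefSeq transcripts. Per the submitters' processing notes, TopHat2 2.0.6 and the mouse build mm10 were used. The sources used here do not give the program that quantified transcripts, its settings or its use of strand. The authors deposited FPKM and estimated counts per transcript and library, per the file headers. The estimated counts are not whole, and low values are multiples of a step per library (0.867 to 1.23). Dividing by it gave recovered fragments, of which 90.3 to 91.6% of values from single-transcript genes up to 50 steps were whole within 0.05. Precision is limited by 20.6 to 28.4 M recovered fragments per library, and floors cover counting error only.

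Transcripts were summed by symbol to 16537 genes, counts were rounded, and edgeR 4.0.16 (R 4.3.3) was run with TMM scaling and filterByExpr, which kept 12837 genes and left out 3700, with 1 coefficient per group and no covariate. The SE is the log2 change over the square root of the F statistic. Library shares used exact permutation tests (SciPy 1.17.1). Sequences were aligned with Biopython 1.88. Alternatives used DESeq2 1.42.0 and limma 3.58.1, among others. The fit was tested on simulated data. Starts were raised by 1 to count from 1.

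The members, gene lists and motifs were chosen with earlier results of these data known. The text names the 9 receptors and each ligand above 3 counts in a library. From each pathway list it names up to 4 genes with the smallest adjusted p in early LP against HPC. It also names the 2 genes most like each receptor (only the nearest where given alone) and the nearest gene of the table on each side. Marker genes, Jak2, Socs1, Socs3 and the neighbours described were picked from these after their values were seen. Some results that this rule names are not reported here.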

Additional observations from a re-analysis of the deposited data

How the results depend on the processing

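The log2 changes of the 9 receptor genes against HPC (18 results) kept their direction and their call in all 344 values recomputed under the alternatives, with adjusted p no higher than 0.000305. The alternatives were DESeq2 size factors, the DESeq2 Wald test, no filter, a fit of only the 2 groups, a replicate block, each library left out, limma on log2(FPKM + 0.1) and log2(FPKM + 1), recovered fragments and summed beta chains, and, chosen after seeing the data, upper quartile scaling and a block for the long-transcript split. With a pseudocount of 1, which compresses low levels, the change of Flt3 shrank to -3.82 in early LP and -3.94 in median LP. That of Epor shrank to -4.76 in early LP and -4.92 in median LP. Between median and early LP no receptor gene was called under any of these alternatives (adjusted p 0.0763 or higher). With only these 2 groups, Epor did not pass the filter on low counts and was not tested. The replicate numbers share no source in the labels, and same-numbered libraries correlated at -0.21 to 0.12 after group means were removed; the replicate block called 192 genes in place of 318 between the LP phases and changed no receptor call.

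Signs close to 0 turned round in the comparison of median with early LP. With a library left out, Kit ranged from -0.041 to 0.0029 (without median LP 3), Csf2ra from -0.11 to 0.032 (positive without early LP 2, and 0.011 without median LP 1) and Csf2rb2 from -0.097 to 0.055 (negative without median LP 3, and -0.024 without early LP 1). Csf2rb2 was also -0.012 and -0.011 in limma with pseudocounts of 0.1 and 1, -0.0077 with the long-transcript block and -0.0056 with upper quartile scaling. The count of all genes called between the phases, 318, was 576 with the DESeq2 Wald test, 605 with only the 2 groups and 549 with the long-transcript block, and 105 to 687 with a library left out. It was highest without HPC 3 and lowest without early LP 2. The cause was not tested. Depth limits Epor and Flt3 in LP, where 3 to 35 fragments stand behind each library's value.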
